A study of Mus musculus with 15 samples.

Results

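The late phase of the dexamethasone response was examined by setting 3134 cells at 8 h of exposure against 3134 cells at 2 h. The comparison held 4 of the 15 arrays of the study, 2 at 8 h and 2 at 2 h, and each 8 h array was paired with the 2 h array of the same run. Runs were read from the serial numbers in the sample titles, which fall into a lower series (first run) and a higher series (second run). Dexamethasone, a synthetic glucocorticoid, was given at 100 nM, and all cells had first been kept in serum stripped of hormones with charcoal and dextran. The other arrays were 3134 cells at 0 h and 4 h, 2 arrays each, and 7 arrays of AtT-20 mouse pituitary corticotroph cells over the same times. Only 1 of those was at 8 h. The labels call the 0 h samples untreated in one place and mention vehicle in another, and no array held cells kept for 2 to 8 h without hormone. A change between 2 h and 8 h of dexamethasone therefore cannot be told apart from a change with time in culture. Nothing states that arrays of a group came from separate cultures, so the p-values measure the spread between arrays, which may be technical.

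The 3134 line is a transformed derivative of C127 cells, which came from a mammary adenocarcinoma of an RIII mouse, so the results describe 1 line. The line was checked against marker lists by counting markers past 1 common level, which says only whether a probe signal reached it. At 0 h, 13 of 15 epithelial markers with a value lay below the level a gene had to reach to be tested, log2 6.59, and 15 of 19 mesenchymal markers reached that level. All 11 corticotroph markers, 9 of 11 immune markers and 8 of 9 endothelial markers lay below it.

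Glucocorticoids act through the glucocorticoid receptor, the product of Nr3c1, a transcription factor that enters the nucleus with its ligand and binds DNA near its target genes. Many direct targets change within the first hours, and some of them encode regulators that act on further genes. Feedback inhibitors, transcripts of short half-life and the circadian clock, whose Per genes the receptor induces, all give a glucocorticoid response a time course. Levels below are log2 values of a gene, quantile normalized over all arrays and taken as the median over its exon probesets. They compare arrays for 1 gene and not genes with each other.

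Of 9919 genes tested, 114 were higher and 84 were lower at 8 h than at 2 h (1.15% and 0.847% of all genes tested, 2.00% in all; limma with the run as a block, Benjamini-Hochberg adjusted p under 0.05). The genes that rose between the times included Selenbp1, Aldh1a1, Tns1, Lbp and the matrix proteins Mgp and Prelp. Those that fell included the cystine transporter Slc7a11, the clock repressor Nr1d1, the glycolytic regulator Pfkfb3 and a group of ribosome assembly factors. All 198 moved the same way in both runs. The 8 h and 2 h arrays did not overlap for all 114 higher genes and 82 of the 84 lower genes. Choosing these genes from the same arrays would give both results. Over all 9919 genes tested, 6078 moved the same way in both runs and 3512 did not overlap. At an unadjusted p under 0.05, 1722 genes differed between 8 h and 2 h.

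The count rests on the pairing by run and on single arrays. Without the run as a block 9 genes were called, namely 4930486L24Rik, Aldh1a1, Dlgap2, Fam107a, Otulinl, Pfkfb3, Ptprf, Slc7a11 and Tns1, and all 9 were among the 198 (Otulinl and Ptprf are named here after their values were seen). Leaving out the second-run 2 h array left 20 calls, leaving out the first-run 2 h array 46, the second-run 8 h array 55 and the first-run 8 h array 128. With the values as deposited the median gene stood at -0.31 between 8 h and 2 h, and 28 genes were called higher and 228 lower. At the edge of the threshold, H6pd, Ksr1 and Cryab were inside with adjusted p of 0.0489 to 0.0499, and Zkscan6, Zfp280d and Foxd1 were outside with 0.0504 to 0.0506. In bulk RNA, fewer cells of a kind and less RNA per cell cannot be told apart.

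**Figure D1:**
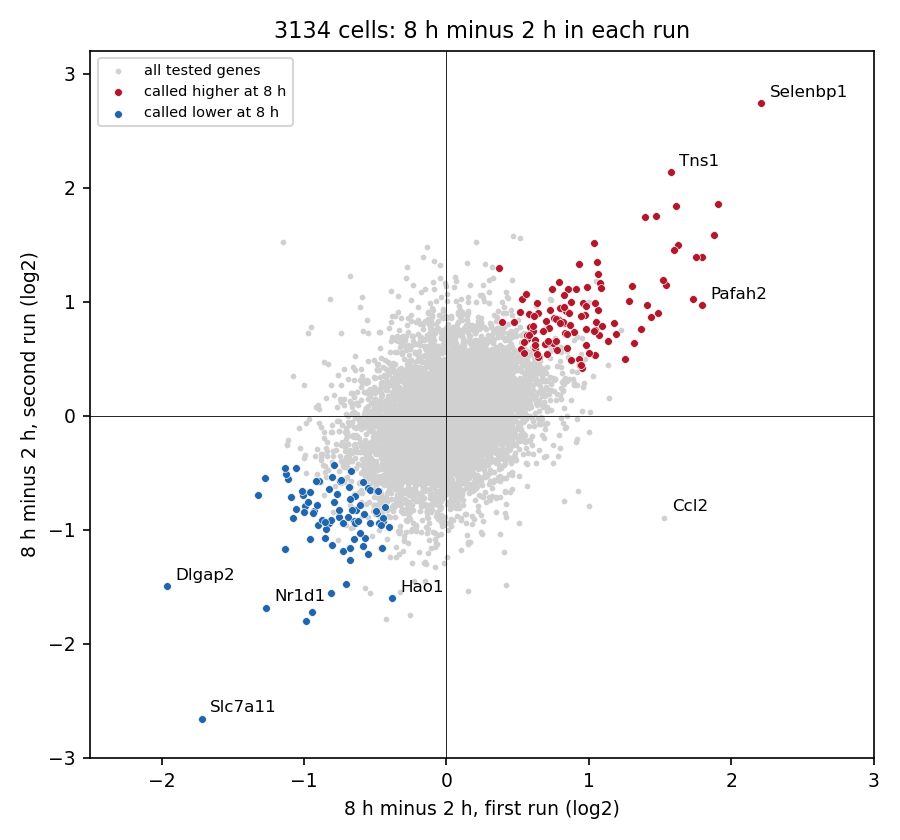
The 8 h minus 2 h difference (log2) of each tested gene in the first run (horizontal axis) and in the second run (vertical axis); red points are the 114 genes called higher and blue points the 84 called lower at 8 h. Every called gene lies in the quadrant where both runs moved the same way, and Ccl2 is marked as a gene whose difference was 1.53 in the first run and -0.89 in the second.

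Set against 0 h, the genes fell into 3 patterns. Of the 198, 135 built up, meaning that they moved further from their 0 h level and were called at 8 h against 0 h (79 rising and 56 falling). A further 37 faded, meaning that a change called at 2 h against 0 h had shrunk by 8 h (17 rises and 20 falls). No gene reversed, in the sense of being called on opposite sides of 0 h at 2 h and at 8 h, and 26 had no class. Another 179 genes held: they were called the same way at both times and not between them (127 rises and 52 falls). The classes made up 1.36% (built up), 0.373% (faded) and 1.80% (held) of the genes tested. They describe contrasts that share arrays. At 2 h against 0 h, 194 genes were higher (1.96%) and 104 lower (1.05%), and at 8 h against 0 h 784 were called (7.90%).

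The split of each class moved with the scaling of the arrays. On the deposited scale 19 genes built up rising and 172 falling, 22 rises and 1 fall faded, and 63 rises and 47 falls held. With arrays centred on their medians, 102 genes built up rising and 122 falling, and 28 rises and 22 falls faded. Without the run block 8 genes built up, 1 faded and 81 held. Leaving out 1 array of 3134 gave 16 to 110 genes built up, 4 to 30 faded and 83 to 173 held. The fewest built up and faded were found without the second-run 2 h array, and the fewest held without the second-run 0 h array.

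**Figure D2:**
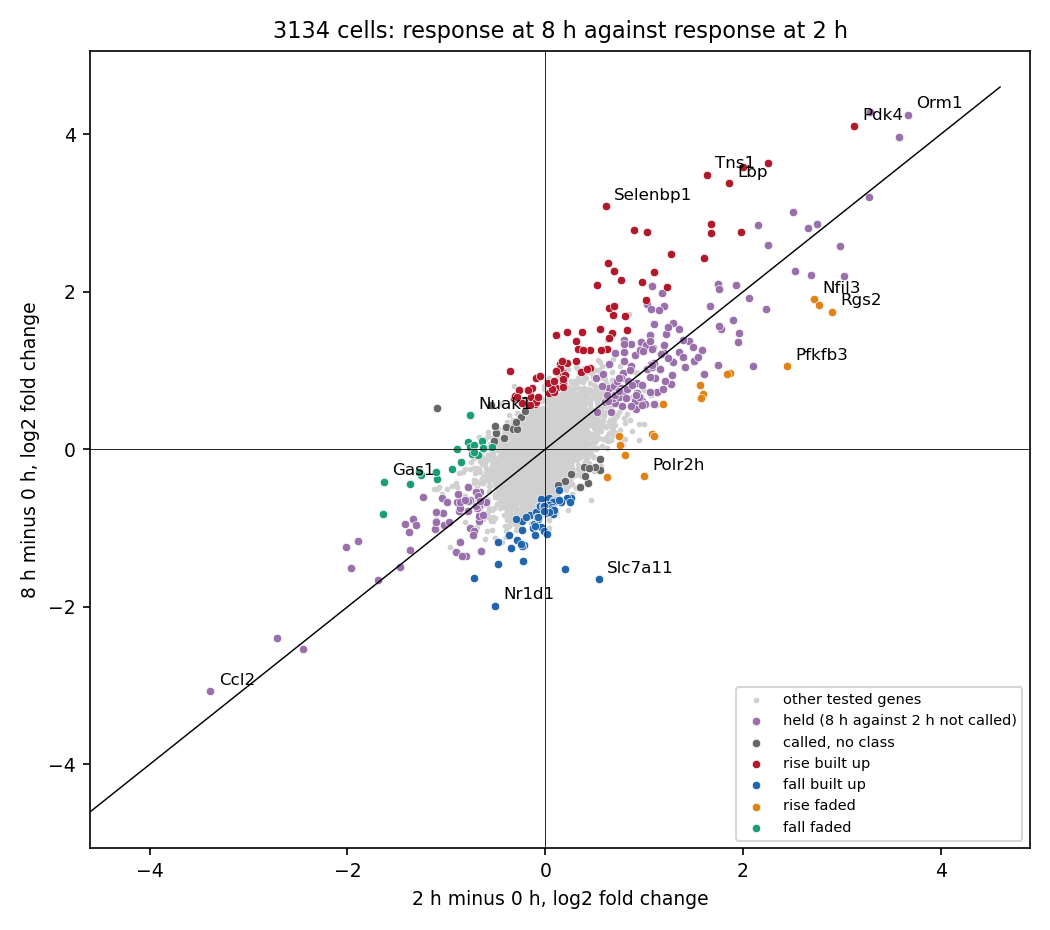
Response at 8 h (8 h minus 0 h, log2, vertical axis) against response at 2 h (2 h minus 0 h, log2, horizontal axis) for each tested gene in 3134 cells, with the line of equal responses. Red and blue points (built up) lie farther from 0 at 8 h than at 2 h, orange and green points (faded) lie nearer to 0 at 8 h, purple points (held) lie near the line, and grey dark points are the 26 called genes with no class.

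The 4 h arrays mostly lay on the way. The mean at 4 h fell between the 2 h and 8 h means for 108 of the 114 genes that were higher at 8 h and for 78 of the 84 that were lower, and for 42.9% of all genes tested. The 198 were chosen for a wide gap between their 2 h and 8 h means, which by itself places the 4 h mean inside it more often, so these shares are no comparison. By 4 h the median gene had covered 53.9% of the step in the first set and 39.2% in the second, beside 51.6% over all genes tested. Both parts of this share use the same 2 h arrays. Noise alone can therefore give a share of this size, and the value over all genes is no background for timing. Called differences between neighbouring times were few, with 2 genes at 4 h against 2 h (0.0202%) and 11 at 8 h against 4 h (0.111%). The pair were Tns1, higher by 1.45, and Dlgap2, lower by 1.48 (-1.48) at 4 h. At an unadjusted p under 0.05 the numbers were 1025 and 1016.

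Several of the rises that built up were metabolic enzymes. Selenbp1, a selenium-binding protein with methanethiol oxidase activity, read 8.75 and 8.23 in the first and second runs at 8 h, against 6.54 and 5.49 at 2 h. Both 8 h arrays lay far above both 2 h arrays, which were still below the testing level. The difference was 2.48 ± 0.28 (SE, log2; 95% interval 1.87 to 3.08, adjusted p = 0.00115), measured from dim signal at 2 h. Its response at 2 h, 0.61 above 0 h, was not called (adjusted p = 0.497). All 6 of its probesets were higher at 8 h in both runs. Without the run block its adjusted p was 0.0664.

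Aldh1a1, which oxidizes retinaldehyde to retinoic acid, read 10.55 and 10.09 at 8 h, against 8.64 and 8.23 at 2 h. Its difference was 1.88 ± 0.19 (SE; adjusted p = 0.000777), on top of a rise of 0.90 already called at 2 h against 0 h. Pafah2, a phospholipase of oxidized and platelet-activating phospholipids, read 10.23 and 9.64 at 8 h, against 8.44 and 8.68 at 2 h. The groups of both genes did not overlap, but the step of Pafah2 was 1.79 in the first run and 0.97 in the second. Pdk4, which inhibits pyruvate dehydrogenase and so the entry of glucose carbon into the citric acid cycle, was 10.44 and 10.72 at 8 h, against 9.65 and 9.55 at 2 h. Most of its rise was early, 4.10 at 8 h and 3.12 at 2 h against 0 h, and the further 0.98 ± 0.14 was called (SE; adjusted p = 0.00391). Glul, glutamine synthetase, followed it with 12.20 and 12.16 at 8 h, against 11.37 and 11.44 at 2 h (difference 0.78 ± 0.12, SE, adjusted p = 0.00624).

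Proteins of adhesion and the matrix were also among the rises. Tns1, a tensin that links integrins to actin, read 11.25 and 11.33 at 8 h, against 9.68 and 9.19 at 2 h. Its difference was 1.86 ± 0.18 (SE; 3.62-fold, adjusted p = 0.000777), and it stayed called under all 19 alternative settings. Mgp, an inhibitor of calcification, read 9.43 and 8.86 at 8 h, against 7.67 and 7.46 at 2 h. Prelp, a leucine-rich proteoglycan of the matrix, read 9.31 and 9.75 at 8 h, against 7.91 and 8.01 at 2 h. Both rose by 1.57, with no overlap between 8 h and 2 h, but their standard errors were 0.31 and 0.30, and each lost its call under 6 of 19 settings. Ccn2, a matricellular protein induced by TGF-beta and YAP, read 9.76 and 9.84 at 8 h, against 9.03 and 8.92 at 2 h (difference 0.83 ± 0.19, SE, adjusted p = 0.0441), and lost its call under 11 of 19 settings.

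Some secreted proteins of the acute phase rose as well. Lbp, which binds bacterial lipopolysaccharide, read 8.63 and 8.37 at 8 h, against 7.03 and 6.92 at 2 h, a difference of 1.52 ± 0.19 (SE; adjusted p = 0.0022). All 20 of its probesets were higher at 8 h in both runs. Serpina3n, a serine protease inhibitor, read 7.44 and 7.18 at 8 h, against 6.37 and 6.02 at 2 h, and lost its call under 10 of 18 settings. Hp, haptoglobin, which binds free haemoglobin, read 7.41 and 6.06 at 8 h, against 5.87 and 4.91 at 2 h. The 8 h arrays of both genes lay above the 2 h arrays, with the second-run 8 h array of Hp below the testing level. Angptl7, an angiopoietin-like secreted protein, also read low, 6.93 and 6.69 at 8 h against 5.31 and 4.85 at 2 h (difference 1.72 ± 0.20, SE, adjusted p = 0.00122). Angptl7, Hp and Glt28d2, named below, were tested only because their 8 h mean reached the testing level. The filter thus favoured a rise and their calls lend it no weight. Among the 114 higher genes, 15 had a 2 h mean below that level, beside 1450 of the 9919 genes tested. Among the 84 lower genes, 14 had an 8 h mean below it, beside 1406 of the 9919.

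Further rises came from genes of other kinds. Fam107a, an actin-associated protein of the stress response, read 9.52 and 9.26 at 8 h, against 7.73 and 7.87 at 2 h. Slc10a6, a transporter of sulfated steroids, read 8.18 and 8.17 at 8 h, against 6.45 and 7.14 at 2 h. Both had risen by 2 h against 0 h, by 2.00 and 2.26, and both rose further, by 1.59 and 1.38. Ctla2b, a cysteine protease inhibitor, rose by 1.73, but it has a close paralogue, Ctla2a, which rose by 1.19, and the signal of probes that match both cannot be assigned (Ctla2a is named for this reason, after its value was seen). The locus 4930486L24Rik, named as in the annotation, read 7.94 and 8.24 at 8 h, against 6.32 and 6.74 at 2 h. Its difference was 1.56 ± 0.13 (SE; adjusted p = 0.000546), with all 9 probesets higher in both runs. It was tested only because its 4 h and 8 h means, 7.27 and 8.09, reached the testing level. The filter therefore favoured a rise. Glt28d2, for which only 3 probesets had a value, rose by 1.61 with an SE of 0.35 and had no class.

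Id3, an inhibitor of basic helix-loop-helix factors, had means above its 0 h level at 8 h and below it at 2 h. It read 8.68 and 9.32 at 8 h, against 7.16 and 8.13 at 2 h, and it stood at 7.77 and 8.24 at 0 h. The 8 h minus 2 h difference was 1.35 ± 0.18 (SE; adjusted p = 0.00323). Its rise at 8 h against 0 h, 0.99, was called, and its value at 2 h against 0 h, -0.36, was not (adjusted p = 0.592).

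The largest fall was that of an amino acid transporter. Slc7a11, the light chain of the antiporter that imports cystine in exchange for glutamate, read 5.48 and 4.68 at 8 h, against 7.20 and 7.34 at 2 h. Both 8 h arrays lay below the testing level and both 2 h arrays above it. The difference was -2.19 ± 0.22 (SE, log2; 95% interval -2.68 to -1.70, adjusted p = 0.000777), measured from dim signal at 8 h, all 13 probesets were lower at 8 h in both runs, and the call stood under all 19 alternative settings. Its levels at 0 h were 6.66 and 6.80, so that the 8 h arrays lay below 0 h (-1.65, adjusted p = 0.000675) and the 2 h arrays above it (0.54, adjusted p = 0.405). Slc7a1, which imports cationic amino acids, read 9.77 and 9.92 at 8 h, against 10.85 and 10.82 at 2 h (difference -0.99 ± 0.15, SE, adjusted p = 0.00474).

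Slc7a11 is a known target of ATF4, the transcription factor of amino acid shortage, in mouse cells, and is also on the list of NRF2 targets. Its RefSeq promoter window, 300 bases that end 50 bases past the gene start, is shown because it holds 2 matches to TGATGCAA, a composite C/EBP and ATF element, starting 66 and 47 bases before the gene start. It also holds 1 receptor half-site (AGAACA on the opposite strand), 185 bases before the start and not capitalised. The window lies at chr3:50443564-50443863 on the minus strand (GRCm38.p6), and capitals mark the matches, the second on the opposite strand.
Slc7a11 promoter: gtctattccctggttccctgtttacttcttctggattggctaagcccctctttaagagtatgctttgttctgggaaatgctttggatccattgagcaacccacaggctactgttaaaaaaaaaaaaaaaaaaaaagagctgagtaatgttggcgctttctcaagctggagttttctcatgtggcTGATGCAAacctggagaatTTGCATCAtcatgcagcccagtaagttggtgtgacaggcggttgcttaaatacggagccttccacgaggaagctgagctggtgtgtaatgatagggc
The motif was searched on both strands. It was present in 0.706% of the 8078 tested genes with a window and in 1.03% of all 27025 genes with one. Of 46 built-up falls with a window Slc7a11 was the 1 that held it, and 4 of 107 held rises held it (3.74%). A match is a description of these letters and not of binding.

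The list of ATF4 targets and amino acid genes moved mostly downwards. Of 39 members tested, 7 fell and 0 rose between 2 h and 8 h, 29 had a negative difference, and the median was -0.38, beside -0.004 over all genes tested (0.847% of which were called lower). Besides Slc7a11 and Slc7a1 the called members were Atf5, a transcription factor of the same pathway (-0.85), Aldh18a1, which makes the precursor of proline (-0.73), the neutral amino acid transporter Slc1a4 (-0.67), the C/EBP factor Cebpb (-0.61) and the cysteinyl-tRNA synthetase Cars (-0.59). Slc1a4 and Cars are named to complete the count, and their calls were lost under 10 and 11 of 19 settings. Those of Cebpb, Aldh18a1, Atf5 and Slc7a1 were lost under 11, 7, 6 and 3 of 19. The list median was -0.37 in the first run and -0.21 in the second, and -0.68 with the values as deposited, beside -0.31 over all genes. Leaving out 1 array of 3134 gave medians of -0.44 to -0.18 and 1 to 4 called members, and without the run block 1 member was called.

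Some ribosome assembly factors fell over the same interval. Of 29 members of the list of ribosome biogenesis genes and Myc targets, 6 fell and 0 rose, 25 had a negative difference, and the median was -0.39. Over all 9919 genes tested 0.847% were called lower and 5023 had a negative difference. Gnl3, nucleostemin, a nucleolar GTPase, read 9.39 and 9.15 at 8 h, against 10.12 and 10.33 at 2 h. Utp20 and Noc3l, both factors of pre-rRNA processing and subunit assembly, fell by 0.77 and 0.75. Nop56, a core protein of box C/D small nucleolar ribonucleoproteins, read 10.19 and 10.15 at 8 h, against 10.69 and 10.98 at 2 h. The remaining pair, named to complete the count, were the rRNA methyltransferase Nop2 (-0.74) and the processome component Heatr1 (-0.73). The calls of this pair were lost under 10 and 6 of 19 settings. Those of Utp20, Noc3l and Nop56 were lost under 6 each, and that of Gnl3 under 5.

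None of these 6 had a called change at 2 h against 0 h, and all 6 were below 0 h at 8 h. The list median was -0.46 at 8 h and -0.04 at 2 h against 0 h. Outside the list, Gar1, a protein of H/ACA small nucleolar ribonucleoproteins, fell by 1.01 (6.73 and 8.61 at 8 h, against 8.05 and 9.30 at 2 h, with the runs far apart), and Rpp40, a subunit of ribonuclease P and MRP, by 1.09 at levels near or below the testing level. The median was -0.34 in the first run and -0.41 in the second, and -0.76 on the deposited scale beside -0.31 for all genes. Leaving out 1 array of 3134 gave medians of -0.50 to -0.32 and 0 to 6 called members, and 0 were called without the run block, without either 2 h array or with no filter on dim genes.

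**Figure D3:**
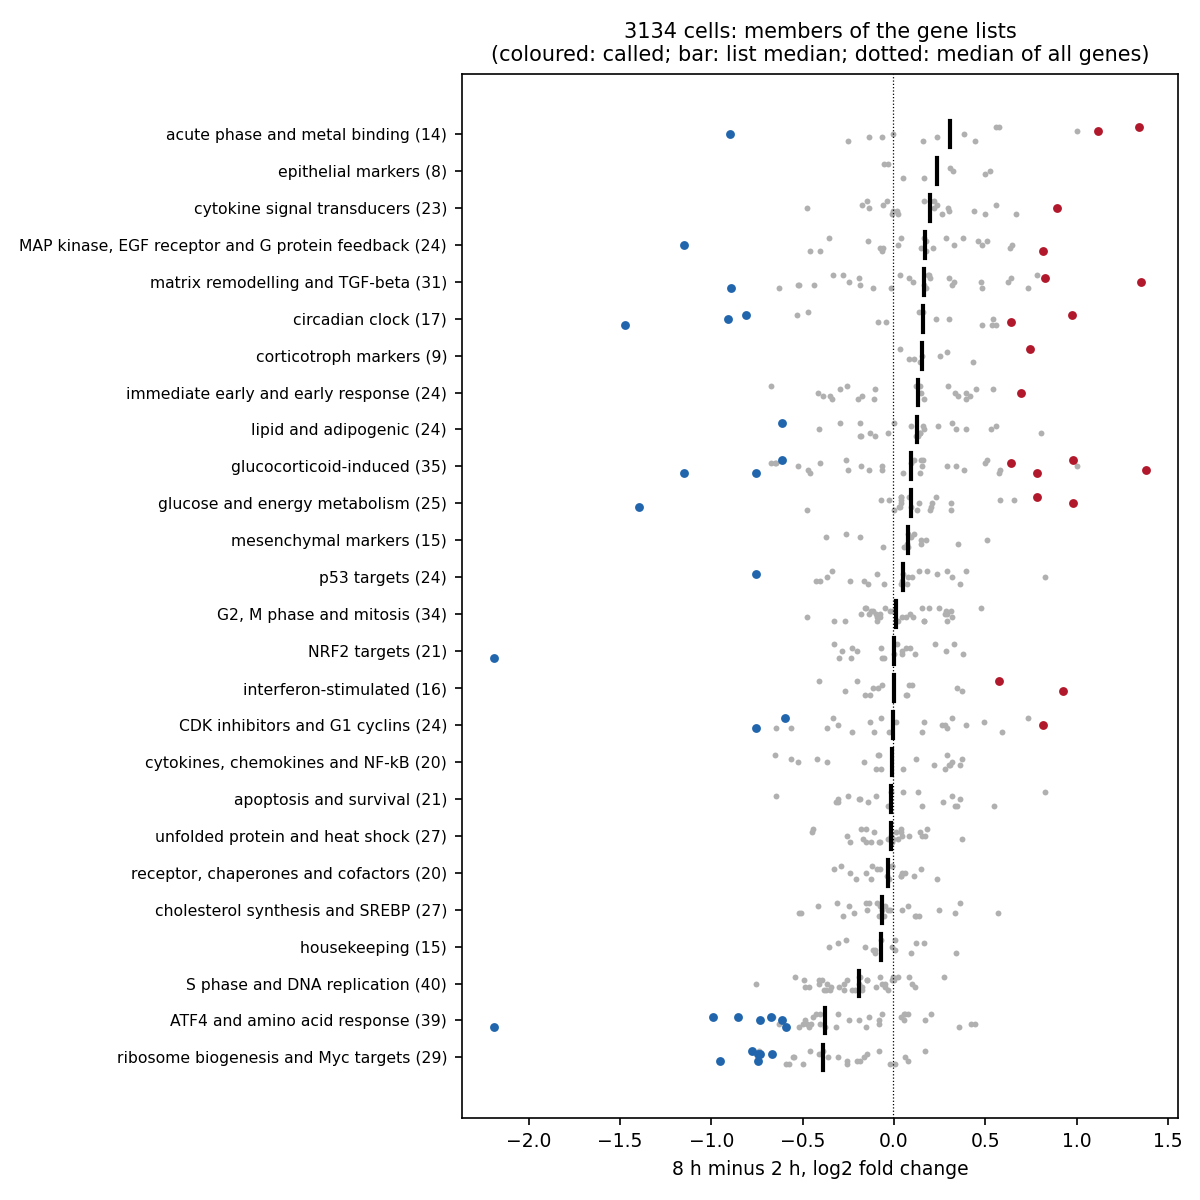
Members of each gene list with at least 5 tested genes (number tested in brackets) by their 8 h minus 2 h log2 fold change in 3134 cells; red and blue points are genes called higher and lower, grey points were not called, black bars are list medians and the dotted line is the median of all genes tested. The lists of ribosome biogenesis and of ATF4 targets have the lowest medians, -0.39 and -0.38, and hold 6 and 7 genes called lower and 0 called higher.

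Other falls that built up were single genes of varied function. Dlgap2, a scaffold protein of synapses, read 6.01 and 6.11 at 8 h, against 7.97 and 7.61 at 2 h (difference -1.73 ± 0.17, SE, adjusted p = 0.000777). Of its 19 probesets 13 were lower and 2 higher in both runs. Aldh3a1, which oxidizes aromatic and medium-chain aldehydes, read 9.10 and 8.34 at 8 h, against 9.91 and 9.90 at 2 h, with a larger step in the second run (-1.55) than in the first (-0.81). Mical2, a monooxygenase that acts on actin, read 8.66 and 8.51 at 8 h, against 9.62 and 9.59 at 2 h, with no overlap and steps of -0.96 and -1.08. Hao1, a peroxisomal oxidase, fell by 0.99 at levels near or below the testing level. Its step was -0.38 in the first run and -1.60 in the second, and its call was lost under 10 of 17 settings. Of the 56 falls 55 were called at 8 h and not at 2 h against 0 h. The exception was Lhfpl2, named for this count.

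**Figure D4:**
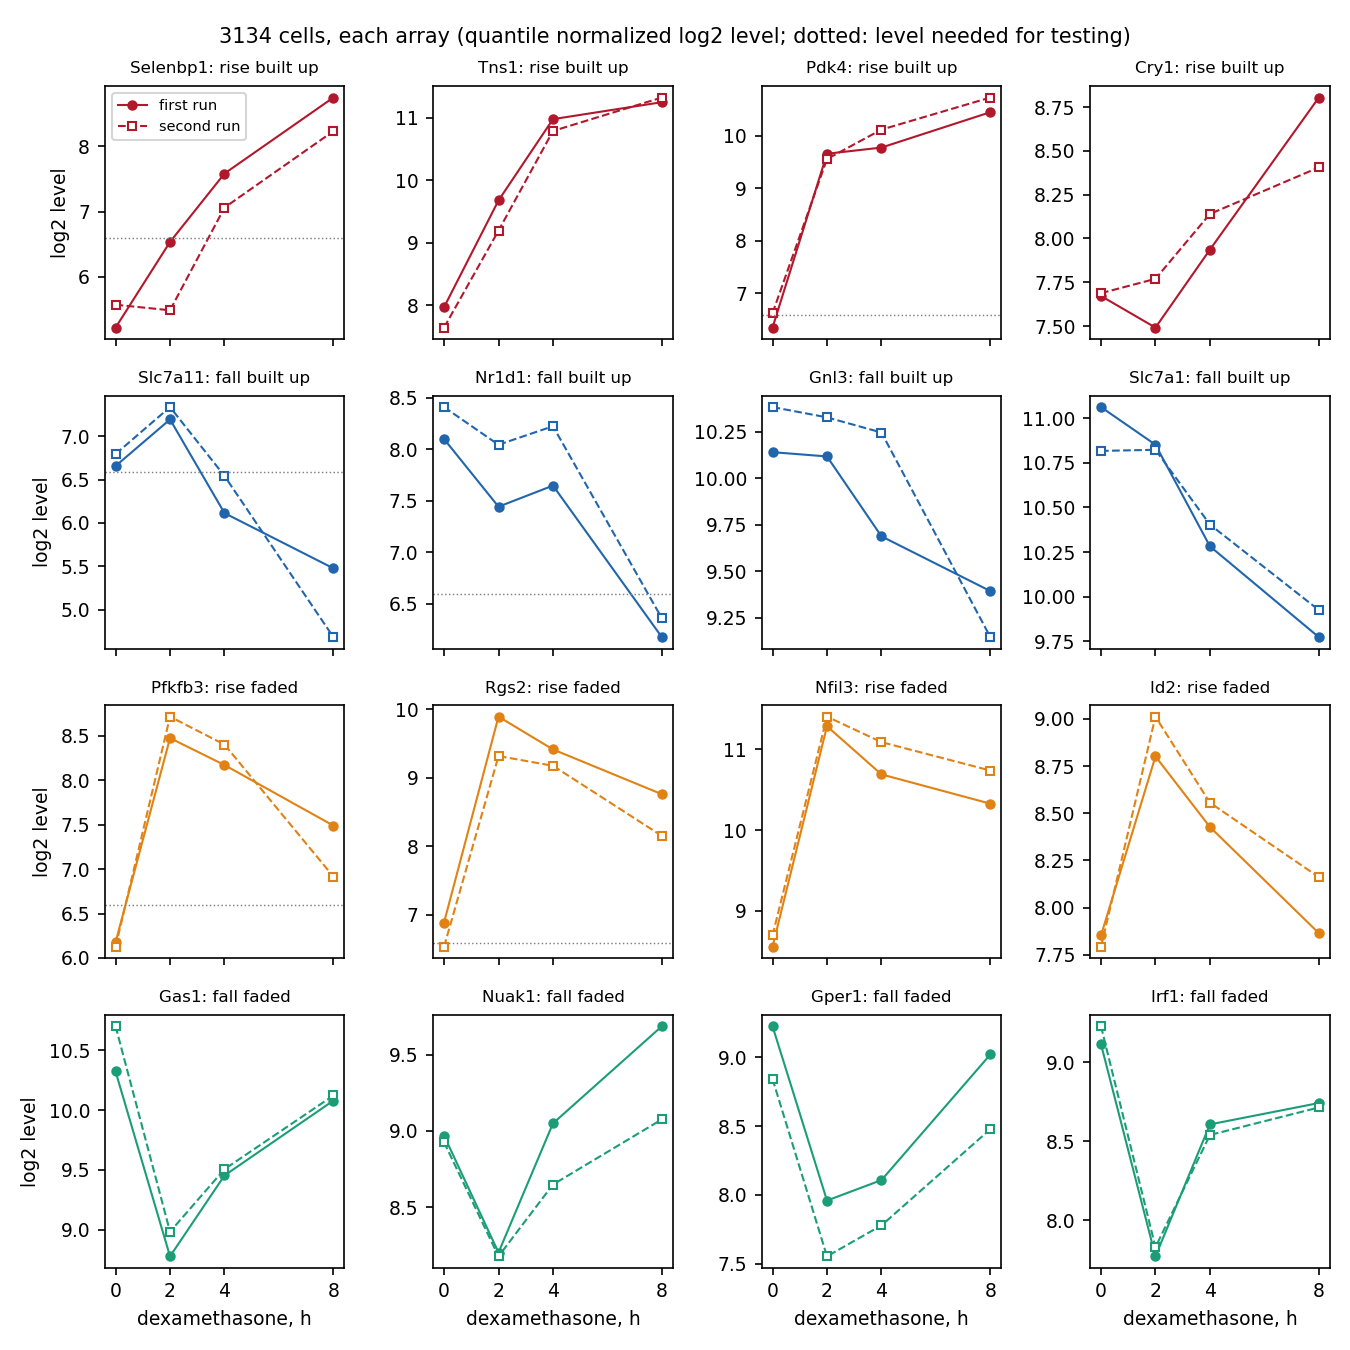
Log2 level of 16 genes in each array of 3134 cells by hours of dexamethasone, first run with filled circles and second run with open squares, 4 genes for each pattern from top to bottom (rises built up, falls built up, rises faded, falls faded). In both runs the genes of the lower rows moved between 0 h and 2 h and then turned back, and those of the upper rows were farthest from their 0 h level at 8 h; the dotted line is the testing level where it falls in the panel.

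The rises that faded included transcription factors, a signalling inhibitor and transporters. Of the 17, 10 were still called above 0 h at 8 h and 7 were not. Pfkfb3, the kinase that makes fructose 2,6-bisphosphate and so drives glycolysis, read 7.49 and 6.92 at 8 h, against 8.48 and 8.72 at 2 h. Its rise was 1.05 at 8 h and 2.45 at 2 h against 0 h, so that 43.0% of the early log2 response was left. The difference was -1.39 ± 0.20 (SE; adjusted p = 0.00445), and it was 1 of the 9 calls that stood without the run block. Pdk4, described above, rose in the same interval.

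Rgs2, which shortens signalling by Gq-coupled receptors, read 8.76 and 8.15 at 8 h, against 9.89 and 9.32 at 2 h, with steps of -1.13 and -1.17 in the runs. Its difference was -1.15 ± 0.15 (SE; adjusted p = 0.00283), and 60.3% of the early response was left. Slc25a33, a mitochondrial carrier of pyrimidine nucleotides, kept 66.2% of its early rise and Slc39a14, a zinc and iron importer, 52.1%. Cdkn1a, the CDK inhibitor p21, read 10.61 and 10.71 at 8 h, against 11.67 and 11.17 at 2 h, and kept 51.8%. Cebpb kept 48.4%. The calls of Cdkn1a and Cebpb were lost under 9 and 11 of 19 settings.

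Some early rises were no longer told from 0 h at 8 h. Id2, a relative of Id3, read 7.86 and 8.16 at 8 h, against 8.80 and 9.01 at 2 h, with 7.85 and 7.79 at 0 h. Id2 therefore fell (-0.89, adjusted p = 0.00559) while Id3 rose (1.35). Polr2h, a subunit shared by the nuclear RNA polymerases, read 7.38 and 6.71 at 8 h, against 8.32 and 8.43 at 2 h. Slc19a2, a thiamine transporter, read 8.75 and 8.64 at 8 h, against 9.55 and 9.77 at 2 h. The 8 h means of both lay below 0 h, by -0.34 and -0.35, without a call (adjusted p = 0.333 and 0.153).

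The falls that faded included several regulators of growth and signalling, and 19 of the 20 were no longer told from 0 h at 8 h. Gas1, a membrane protein linked to growth arrest and hedgehog signalling, read 10.08 and 10.12 at 8 h, against 8.78 and 8.98 at 2 h. Against 0 h it stood at -0.41 at 8 h (adjusted p = 0.0974) and at -1.63 at 2 h (adjusted p = 1.84e-05). The difference of 1.22 ± 0.14 (SE; adjusted p = 0.00115) had nearly the same size in both runs, 1.30 and 1.14. Nuak1, a kinase of the AMPK family, read 9.69 and 9.08 at 8 h, against 8.20 and 8.18 at 2 h, and stood at 8.97 and 8.93 at 0 h. It was thus above 0 h at 8 h without a call (0.43, adjusted p = 0.126) and below it at 2 h (-0.76, adjusted p = 0.0181).

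Gper1, a membrane oestrogen receptor coupled to G proteins, read 9.02 and 8.48 at 8 h, against 7.96 and 7.55 at 2 h. Ajuba, a LIM protein of cell junctions and Hippo signalling, read 9.29 and 9.64 at 8 h, against 8.24 and 8.82 at 2 h. Irf1, a transcription factor of the interferon response, read 8.74 and 8.71 at 8 h, against 7.77 and 7.83 at 2 h. For all of these the 8 h arrays lay above the 2 h arrays, with steps between 0.82 and 1.06 in single runs. Dusp4, a phosphatase of MAP kinases, was the 1 gene still called below 0 h at 8 h (-0.83, against -1.64 at 2 h). Others that recovered were the kinase Pim1 (0.89), Gadd45a, an effector of stress and p53 (0.82), Klf10, an early gene of TGF-beta (0.70), and the interferon-induced Ifit2 (0.58). Their calls were lost under 5 of 19, 7 of 19, 10 of 18 and 14 of 19 settings, in that order. The calls of Gper1, Ajuba, Irf1 and Dusp4 were lost under 3, 5, 7 and 7 of 19 settings.

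No reversal passed the threshold, although 8 genes had an unadjusted p under 0.05 in all 3 contrasts with opposite signs at 2 h and at 8 h against 0 h. They included Slc7a11, Nuak1 and Slc19a2, described above. Of the 37 genes that faded, 11 had an 8 h mean on the other side of 0 h from their 2 h mean, and so had 40 of the 110 that built up late. When a gene's value was the mean over its probesets and not the median, 4 genes reversed. They were Id3, Nuak1, the BH3-only death gene Bbc3 (0.44 at 8 h and -0.47 at 2 h against 0 h) and Slc1a4 (-0.32 at 8 h and 0.36 at 2 h).

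The circadian clock list split in both directions. Of 17 members tested, 2 rose (Cry1 and Per2) and 3 fell (Nr1d1, Nr1d2 and Nfil3), with a list median of 0.16, beside 1.15% called higher and 0.847% called lower over all genes tested. On the deposited scale 0 members were called higher and 3 lower, with a median of -0.22, beside -0.31 over all genes. With centred arrays the median was 0.018, beside -0.074 over all genes. Without the first-run 8 h array, or without either 2 h array, 1 member was called and it had fallen. The clock runs on activators of E-box genes, on PER and CRY proteins that repress those activators, and on the REV-ERB repressors Nr1d1 and Nr1d2, which act at ROR elements. Cry1 read 8.80 and 8.41 at 8 h, against 7.49 and 7.77 at 2 h (difference 0.98 ± 0.17, SE, adjusted p = 0.0125), and was at its 0 h level at 2 h (-0.05). The call of Cry1 was lost under 6 of 19 settings. Per2, named to complete the count, rose by 0.64 ± 0.14 (SE; adjusted p = 0.038), after 0.63 at 2 h against 0 h, and lost its call under 11 of 19 settings. Per1 was 9.60 and 9.47 at 8 h, against 9.93 and 10.08 at 2 h, a difference of -0.47 that was not called (adjusted p = 0.0902).

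The REV-ERB genes Nr1d1 and Nr1d2 and the factor Nfil3 fell between 2 h and 8 h. Nr1d1 read 6.18 and 6.36 at 8 h, against 7.44 and 8.04 at 2 h, so that both 8 h arrays lay below the testing level. Its difference was -1.47 ± 0.15 (SE, log2; 95% interval -1.81 to -1.14, adjusted p = 0.000777), again from dim signal at 8 h. The whole step lay after 4 h (8 h minus 4 h, -1.67, adjusted p = 0.00122; 4 h minus 2 h, 0.19, adjusted p = 0.719). Without the run block its adjusted p was 0.0505. Nr1d2 read 8.53 and 9.16 at 8 h, against 9.80 and 9.71 at 2 h. Nfil3, a repressor at D-box sites, read 10.33 and 10.74 at 8 h, against 11.28 and 11.40 at 2 h, and kept 70.1% of an early rise of 2.72. The calls of Nr1d2 and Nfil3 were lost under 5 and 4 of 19 settings. In the fit without the run block none of the 5 was called.

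The promoter windows of Cry1 and Nfil3 are shown for the elements named above. That of Cry1 (chr10:85185005-85185304, minus strand, GRCm38.p6) holds 1 E-box, CACGTG, 60 bases before the gene start. That of Nfil3 (chr13:52980990-52981289, minus strand) holds 1 match to TAGGTCA, the core of a ROR element, on the opposite strand 12 bases before the gene start. Capitals mark the matches.
Cry1 promoter: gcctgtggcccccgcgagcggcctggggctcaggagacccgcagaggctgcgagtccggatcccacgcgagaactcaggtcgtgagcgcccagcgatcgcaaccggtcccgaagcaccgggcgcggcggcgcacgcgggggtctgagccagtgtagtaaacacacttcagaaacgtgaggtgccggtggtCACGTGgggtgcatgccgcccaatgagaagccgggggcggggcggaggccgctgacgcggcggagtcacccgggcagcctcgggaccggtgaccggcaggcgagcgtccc
Nfil3 promoter: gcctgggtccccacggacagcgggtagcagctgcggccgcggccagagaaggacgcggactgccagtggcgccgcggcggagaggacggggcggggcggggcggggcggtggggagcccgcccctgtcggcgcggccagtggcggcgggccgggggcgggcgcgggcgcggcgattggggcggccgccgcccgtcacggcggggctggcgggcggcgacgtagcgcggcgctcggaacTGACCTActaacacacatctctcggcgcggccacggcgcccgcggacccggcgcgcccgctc
CACGTG, its own reverse complement, was in 22.9% of the 70 genes called lower that had a window, 14.4% of the 90 called higher and 12.1% of the tested genes with one. TAGGTCA, read on both strands, was in 1 of those 70, in 5 of the 90 and in 2.22% of the tested genes. The receptor half-site AGAACA, read on both strands, was in 25.8% of 62 rises that built up, 9.35% of 107 held rises, 14.2% of tested genes and 21.3% of all genes with a window. These shares are descriptions without a test, and the base composition of the sets was not compared.

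Of the 35 tested members of the list of glucocorticoid-induced genes, 20 held, beside 1.80% of all genes tested. A gene can hold only if it was called at 2 h against 0 h. There 28 of the 35 were called higher, beside 1.96% of all genes tested. The list of glucocorticoid-induced genes had a median of 1.78 at 8 h and 1.75 at 2 h against 0 h, and its 8 h minus 2 h median was 0.09, which became -0.24 on the deposited scale, about 0 with centred arrays, and -0.04 to 0.09 when 1 array of 3134 was left out. Between 2 h and 8 h, 4 members rose (Slc10a6, Pdk4, Glul and Per2) and 3 fell (Rgs2, Cdkn1a and Cebpb), beside 1.15% and 0.847% of all genes tested. Leaving out 1 array at 8 h or 2 h left 2 to 4 called members, and without the run block 0 were called. Fkbp5, a co-chaperone that lowers the receptor's hormone binding, read 12.52 and 12.40 at 8 h, against 12.37 and 12.25 at 2 h (difference 0.15, 95% interval -0.15 to 0.45). It had risen by 2.66 at 2 h against 0 h. The 8 h minus 2 h difference of Fkbp5 was -0.24 on the deposited scale. Tsc22d3, the anti-inflammatory factor GILZ, read 10.11 and 10.65 at 8 h, against 9.55 and 10.19 at 2 h, a difference of 0.51 (95% interval 0.08 to 0.94, adjusted p = 0.208). The receptor gene Nr3c1 itself, which was lower at 2 h than at 0 h (-0.66, adjusted p = 0.0191), differed by 0.23 between 8 h and 2 h (95% interval -0.07 to 0.54, adjusted p = 0.418; -0.15 on the deposited scale).

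The largest held rises were acute phase genes and a metallothionein. Orm1, an acute phase plasma protein, read 10.90 and 10.46 at 8 h, against 10.37 and 9.83 at 2 h, a difference of 0.58 (95% interval 0.10 to 1.05, adjusted p = 0.203), after a rise of 3.67 by 2 h. Its near-identical neighbour Orm2, with which probes can share signal, differed by -0.07. Lcn2, which binds bacterial siderophores, read 12.246 and 11.995 at 8 h, against 11.242 and 10.997 at 2 h. Its difference was 1.00 in each run, missed the threshold (adjusted p = 0.0654) and passed it under 9 of 19 other settings. Mt2, which binds zinc, differed by 0.38 and the arrestin-domain gene Arrdc2 by 0.11, values that were -0.0088 and -0.27 on the deposited scale. The 95% interval of the 8 h minus 2 h difference lay within 1 log2 unit for 113 of the 127 held rises. It did so for 49 of the 52 held falls and for 9469 of the 9919 genes tested. A missed threshold thus bounds but does not exclude a difference.

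The largest held falls were chemokines. Ccl2, which draws monocytes, read 6.03 and 4.81 at 8 h, against 4.50 and 5.70 at 2 h, with 8.14 and 8.84 at 0 h. All 4 of the 8 h and 2 h arrays lay below the testing level, and the runs moved in opposite directions. Its difference of 0.32 had an SE of 0.50 and a 95% interval of -0.78 to 1.41, so that its direction was not resolved. Without the first-run 8 h array it was -0.52, and without the first-run 2 h array -0.46. Cxcl5 and Cxcl3, which draw neutrophils, lay below the testing level at both times too, with differences of 0.31 and -0.09. Phlda1, an early response gene, read 8.12 and 8.30 at 8 h, against 7.59 and 7.91 at 2 h (0.46, adjusted p = 0.13). Among 20 members of the list of cytokines, chemokines and NF-kB genes, 0 were called by limma between 8 h and 2 h, which at 2.00% called over all genes is near background.

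The remaining lists held few called genes, to be read against 1.15% of all genes called higher and 0.847% called lower. In the list of glucose and energy genes 2 of 25 rose (Pdk4 and Glul) and 1 fell (Pfkfb3). In that of acute phase and metal-binding genes 2 of 14 rose (Hp and Serpina3n) and 1 fell (Slc39a14), with a median of 0.31. The median of this list was 0.068 in the first run and 0.40 in the second, so 1 run carried most of it. On the deposited scale it was -0.078, beside -0.31 over all genes. Of 31 matrix and TGF-beta genes 2 rose (Ccn2 and Id3) and 1 fell (Id2). Of 24 CDK inhibitors and G1 cyclins 1 rose (Gadd45a) and 2 fell (Cdkn1a and Cdk6), Cdk6 by 0.59. The call of Cdk6 was lost under 10 of 19 settings. Of 16 interferon-stimulated genes 2 rose (Irf1 and Ifit2). Of 24 MAP kinase and G protein feedback genes 1 rose (Dusp4) and 1 fell (Rgs2). Of 24 immediate early genes 1 rose (Klf10), and of 23 cytokine signal transducers 1 rose (Pim1). The lists of lipid, p53 and NRF2 genes held 1 called gene each (Cebpb, Cdkn1a and Slc7a11). Among the corticotroph markers Scg2 was called higher. It lay below the testing level in all 4 groups of 3134 and was tested only because it is bright in AtT-20, so its call in 3134 rests on dim signal.

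Genes of S phase and DNA replication had 0 calls by limma among 40, although 34 had a negative difference, beside 5023 of the 9919 genes tested. Their median was -0.19. The median was -0.02 in the first run and -0.33 in the second, so 1 run carried most of it. Against 0 h, the list median was -0.42 at 8 h and -0.22 at 2 h. At 8 h against 0 h 13 members were called lower, beside 357 of all genes tested. Mcm3, a subunit of the replicative helicase, differed by -0.54 (adjusted p = 0.08) and Ccne2, a cyclin of the G1 to S transition, by -0.75 (adjusted p = 0.0986). The 34 genes of G2 and mitosis had a median of 0.01 and 0 calls. Lists of receptor cofactors, cholesterol synthesis, unfolded protein and heat shock, apoptosis, epithelial, mesenchymal, immune and endothelial markers and housekeeping genes had 0 calls by limma as well. With 2.00% of all genes called (1722 at an unadjusted p under 0.05), lists of these sizes would hold few or none.

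The same step could be set beside AtT-20 cells, though with 1 array at 8 h there. In AtT-20, 2 genes were called at 8 h against 2 h (0.0202%), Nqo1 (1.49) and the membrane protein Tm4sf1 (1.38), both higher at 8 h, and 508 had an unadjusted p under 0.05. None of the 198 genes of 3134 was called in AtT-20. Of the 114 genes higher at 8 h in 3134, 65 had the same sign in AtT-20, and so had 49 of the 84 lower genes, shares close to the 5221 of 9919 over all genes tested. Their AtT-20 medians were 0.07 and -0.03.

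The difference between the lines was called for 3 genes (0.0302% of all), and 911 had an unadjusted p under 0.05. These were 4930486L24Rik, Dlgap2 and Nqo1. For Slc7a11 the step was -2.19 in 3134 and -0.05 in AtT-20 (difference -2.13, adjusted p = 0.0653), for Nr1d1 -1.47 and -0.01 (difference -1.47, adjusted p = 0.0649), and for Tns1 1.86 and 0.30 (difference 1.56, adjusted p = 0.0876). Cry1 rose by 0.98 in 3134 and stood at 0.83 in AtT-20 (adjusted p = 0.503 there), with a difference of 0.15. Prelp stood at 1.57 in 3134 and 1.17 in AtT-20. A step called in 3134 and not in AtT-20 is not shown to differ between them unless the difference itself passed.

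**Figure D5:**
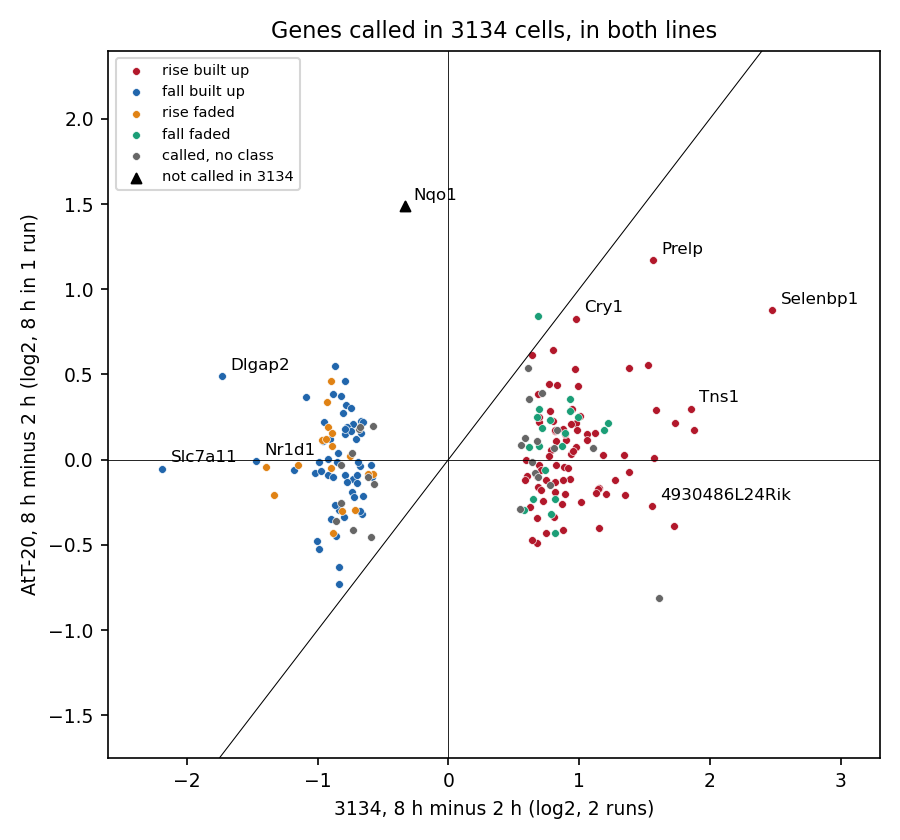
The 8 h minus 2 h log2 fold change in 3134 cells (horizontal axis, 2 runs) and in AtT-20 cells (vertical axis, 8 h in 1 run) of the 198 genes called in 3134, coloured by class, with Nqo1 as a black triangle and the line of equal change. On the vertical axis the medians are 0.07 for genes higher and -0.03 for genes lower in 3134.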

How the data were processed

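The deposited values are log2 signals, 1 per exon probeset and array. The submitters' processing notes name RMA and Affymetrix Expression Console, with no versions. In 3134 the medians of the deposited arrays lay at 7.83 to 8.14 (first run) and 6.76 to 7.20 (second run), so the 15 arrays were quantile normalized. The highest correlation between 2 arrays was 0.985. Of 228090 probesets, 207232 carried 1 gene symbol in the platform annotation, 3882 several and 16976 none. Probesets with 1 symbol were kept. RefSeq lists 14055 of their 16207 symbols as current (GRCm38.p6), 2111 others were updated and 41 left as given. A gene's value is the median over at least 3 probesets (15025 genes). A gene was tested if its mean in at least 1 group was log2 6.59 or more, the 40th percentile over probesets and arrays (9919 genes).

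All 15 arrays entered 1 model of group means, in limma 3.58.1 under R 4.3.3, that had the run within each line as a block and left 5 residual degrees of freedom. Tables were read through data.table (version 1.17.8). P-values are 2-sided and moderated, adjusted by Benjamini and Hochberg over all genes tested, with a threshold of 0.05. The lone AtT-20 array at 8 h is taken to vary as the rest do. With so few arrays, precision is limited, and the standard error of 8 h minus 2 h in 3134 had a median of 0.153 with the block and 0.215 without it. The runs come from serial numbers in the titles. Deviations of same-run arrays of 3134 from their group means correlated at 0.491 to 0.569 over 6 pairs, across genes, so runs were taken as paired. The fit was tested on simulated data.

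Named genes are the 12 largest called changes each way, the 5 largest of each class, up to 4 members of each of 28 lists with the smallest p, the genes called between the lines, and Per1, Fkbp5, Tsc22d3, Nr3c1, Nr1d1, Orm1 and Ccl2. Exceptions are marked in the text. The comparison, the lists and the tests were chosen with earlier results of these data known. Promoter windows are RefSeq's (GRCm38.p6). Alternatives covered the block, the scaling, the filter, the summary over probesets, the variance trend and leaving out each array of 3134. Figures were drawn with matplotlib 3.10.9.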

Additional observations from a re-analysis of the deposited data

Results flagged for a closer look

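The change between 2 h and 8 h differed between the lines for 3 genes, each with an adjusted p of 0.0170 in limma for the difference itself, with 1 AtT-20 array at 8 h. The step of 4930486L24Rik was 1.56 in 3134 and -0.27 in AtT-20, a difference of 1.83. In AtT-20 it read 3.83 at 8 h, against 4.16 and 3.85 at 2 h, all below the level needed for testing. The step of Dlgap2 was -1.73 in 3134 and 0.49 in AtT-20, a difference of -2.22. In AtT-20 it read 5.22 at 8 h, against 4.66 and 5.23 at 2 h, also below that level. 4930486L24Rik passed the filter only through its 3134 means at 4 h and 8 h. Dlgap2 passed it only through its 3134 means at 0 h and 2 h. The filter therefore favoured both steps. The step of Nqo1, a quinone reductase, was -0.33 in 3134 and 1.49 in AtT-20, a difference of -1.82. Nqo1 read 7.37 and 7.36 at 8 h, against 7.62 and 7.77 at 2 h, in 3134. In AtT-20 it read 6.69 at 8 h, just above the level needed for testing, against 5.07 and 4.84 at 2 h, below it. Without the run block 0 genes were called here by limma, and 398 had an unadjusted p under 0.05.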

How the results depend on the processing

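With the run as a replicate block 198 genes were called between 8 h and 2 h in 3134. Without the replicate block 9 were called, and 122 at 2 h against 0 h, 217 at 8 h against 0 h, 0 at 4 h against 2 h, 0 at 8 h against 4 h, 0 in AtT-20 and 0 between the lines, with 1 gene faded, 8 built up and 81 held. On the deposited scale 256 genes were called (28 higher, 228 lower; 104 shared with the 198), with 178, 22 and 1 at 2 h against 0 h, 4 h against 2 h and 8 h against 4 h, 23 between the lines, 23 faded and 110 held. With centred arrays 350 were called (166 shared), 21 at 4 h against 2 h, 4 at 8 h against 4 h, 5 in AtT-20 and 16 between the lines, with 224 built up. Quantile normalization of the 3134 arrays alone gave 357 calls (192 shared), 17 at 4 h against 2 h, 24 at 8 h against 4 h, 57 faded and 224 built up. Fitting those arrays alone gave 1 call at 8 h against 4 h. With no filter on dim genes 65 were called (55 shared), with 194, 408, 0 and 1 at 2 h and 8 h against 0 h, 4 h against 2 h and 8 h against 4 h, 0 in AtT-20, 0 between the lines, 14 faded and 43 built up. The filter at the 60th percentile gave 6 at 4 h against 2 h, 28 at 8 h against 4 h and 23 between the lines, the filter on 3134 groups 4 at 4 h against 2 h and 13 between the lines, and a minimum of 5 probesets 12 between the lines. The mean over probesets gave 845 calls (179 shared), with 488, 1670, 91 and 140 at 2 h and 8 h against 0 h, 4 h against 2 h and 8 h against 4 h, 15 in AtT-20, 85 between the lines, and 4 reversed, 107 faded and 594 built up. A variance trend gave 329 calls (185 shared), 14 at 4 h against 2 h, 25 at 8 h against 4 h, 31 between the lines and 228 built up.

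Leaving out 1 array of 3134 gave 20 to 156 calls at 8 h against 2 h, 155 to 303 at 2 h and 272 to 724 at 8 h against 0 h, 0 to 3 at 4 h against 2 h, at 8 h against 4 h and in AtT-20, and 0 to 5 between the lines. It gave 0 reversed, 4 to 30 faded, 16 to 110 built up and 83 to 173 held. Aldh1a1, Tns1, Fam107a, 4930486L24Rik, Slc7a11 and Dlgap2 stayed called under every alternative in which they were tested. In the main fit, 4930486L24Rik passed the filter only through its 4 h and 8 h means. Dlgap2 passed it only through its 0 h and 2 h means. Some uncalled differences changed sign. On the deposited scale Mt2 was -0.0088, Arrdc2 -0.27, Cd300lb -0.15, Fkbp5 -0.24, Nr3c1 -0.15 and Tm4sf1 -0.17. With centred arrays Arrdc2 was -0.038, Cxcl3 0.14 and Fkbp5 -0.00079. With the mean over probesets Orm2 was 0.16 and Cxcl3 0.072. With 1 array of 3134 left out, Orm2 ranged over -0.21 to 0.072, Arrdc2 over -0.035 to 0.25, Ccl2 over -0.52 to 1.15, Cxcl3 over -0.56 to 0.38 and Cd300lb over -0.084 to 0.14. Where the alternative changed which genes, arrays or probesets entered, the number tested or the arrays fitted changed with it, and otherwise the cause was not tested. Signals near the bottom of the range limit genes such as Ccl2 and Hp.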
